A study of Mus musculus with 2 samples.

Results

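The Ifi200 family is a cluster of interferon-inducible genes on mouse chromosome 1. It was followed here by 10 symbols: Ifi203, Ifi204, Ifi205, Ifi207, Ifi208, Ifi209, Ifi211, Ifi213, Mnda and Aim2. A gene was a member when its symbol was one of these and had a row in both count matrices. This held for 9 of the 10 symbols among 32285 genes. Mnda had no row under that name, and RefSeq lists Mnda as an older name of Ifi211, which has one. Ifi208 gives the set its name and was selected on its measured counts, which were low in macrophages of the library labelled Lmo7-/-, so that value is a description here.

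Proteins of this family usually join a pyrin domain, which binds other pyrin domains, to 1 or more HIN domains, which bind DNA. Aim2 is the best known of them: it senses DNA in the cytosol and assembles an inflammasome with the adaptor Pycard and caspase-1. Most members are induced by type I and type II interferons and are expressed in leukocytes, above all in macrophages. Mice carry more of these genes than humans, and many of the copies are so alike that short reads from them are hard to place.

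The cells came from MC38 tumors. MC38 is a mouse colon cancer cell line, and it was implanted under the skin of young adult female mice, either whole-body Lmo7 knockouts (Lmo7-/-) on the C57BL/6 background or their control mice (Lmo7+/+). The deletion is in the hosts alone, since the implanted MC38 cells of both groups carry an intact Lmo7. Tumors were dissociated, red cells were lysed, and live cells sorted by flow cytometry were loaded on the 10x Genomics platform as 1 library per genotype. How many mice stand behind each library was not stated in the sources used here. A genotype with 1 library has no replicate, so no p-value is given and each comparison below is between these libraries, not between genotypes.

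The Lmo7+/+ library held 16208 droplets called as cells and 98582479 UMIs (tags that each mark a captured RNA molecule), and the Lmo7-/- library 15163 droplets and 80648345 UMIs. After the filter on cells 13542 and 11860 remained, with a median of 4535.5 and 4304.5 UMIs. The 2 libraries shared 279 barcodes, and among the cells kept these held 3 of 499 Ifi208 counts in Lmo7+/+ and 1 of 56 in Lmo7-/-. Cells were clustered without the family members and named from markers as macrophage-like, M-MDSC-like (monocytic myeloid-derived suppressor cells), dendritic-like, T-like, B-like, mast-like, fibroblast-like, endothelial-like and tumor cell-like. In tumor cell-like cells only 3 of 12 markers reached 5 CPM (counts per 1000000), so that class rests mainly on the expression profile along the chromosomes. The T-like class includes a subcluster led by the natural killer genes Klra8, Ncr1 and Gzma. Another 1367 and 1322 cells stayed unnamed. Lmo7 itself had 7 and 10 counts in macrophage-like cells, so its loss cannot be seen there and the genotype of a library rests on its label.

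In the GENCODE M21 annotation of GRCm38 the members lie on chromosome 1 in the order Aim2, Ifi213, Ifi209, Ifi208, Ifi207, Ifi204, Ifi211, Ifi203 and Ifi205. Ifi208 (ENSMUSG00000066677) spans chr1:173673675-173698395 on the plus strand, between Ifi209 (chr1:173630917-173647928) and Ifi207 (chr1:173723427-173741747). The gene model of Mndal overlaps Ifi211 and Ifi203 on the same strand. In the last 500 bases of their longest coding transcripts, 59.4% of the 90-base words of Ifi205 and of Ifi211 also occur in transcripts of each other or of Mndal. For Ifi209 58.6% of these words are shared with Ifi214, and for Ifi208 and Ifi213 3.65% are shared between the pair. None was shared for Aim2, Ifi203, Ifi204 and Ifi207. Counts of Ifi203, Ifi205, Ifi209 and Ifi211 are therefore uncertain, because reads from these stretches may be split or dropped.

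The promoters of the family were searched for the interferon-stimulated response element (ISRE), the site that interferon regulatory factors bind. The motif searched was GAAA, any 2 bases and GAAA again, on both strands of 300-base RefSeq promoters of GRCm38.p6. It was found in 6 of the 8 members with a promoter entry (Ifi203, Ifi205, Ifi207, Ifi208, Ifi211 and Ifi213, and not in Aim2 or Ifi209), against 3.44% of all 32851 promoters. The 150 bases before the RefSeq start are shown for Ifi208, the member with the lowest ratio, and for its neighbours on each side. Those of Ifi213 are shown as well, because they share the longest run of bases with Ifi208 among the members compared. Capitals mark the ISRE match, and each sequence reads 5′ to 3′ on the strand of its gene.

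Ifi208 (chr1:173673515-173673664, plus strand): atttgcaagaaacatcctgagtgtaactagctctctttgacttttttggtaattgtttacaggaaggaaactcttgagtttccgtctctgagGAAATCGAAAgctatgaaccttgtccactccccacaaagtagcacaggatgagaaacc
Ifi213 (chr1:173599273-173599422, minus strand): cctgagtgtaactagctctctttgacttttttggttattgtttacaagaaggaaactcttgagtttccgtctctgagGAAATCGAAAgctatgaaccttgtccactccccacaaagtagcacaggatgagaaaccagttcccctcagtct
Ifi209 (chr1:173630709-173630858, plus strand): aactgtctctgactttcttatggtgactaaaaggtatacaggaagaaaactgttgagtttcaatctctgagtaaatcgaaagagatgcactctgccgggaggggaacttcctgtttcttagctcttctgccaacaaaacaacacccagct
Ifi207 (chr1:173741810-173741959, minus strand): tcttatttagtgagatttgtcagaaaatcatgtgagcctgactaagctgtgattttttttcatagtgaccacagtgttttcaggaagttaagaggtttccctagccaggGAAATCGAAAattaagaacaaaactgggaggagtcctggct

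The Ifi208 and Ifi213 windows share an unbroken run of 88 bases that holds the ISRE match, which begins 58 bases before the start of Ifi208 and 73 bases before that of Ifi213. The longest run that Ifi208 shares with the Ifi207 window is 11 bases and with the Ifi209 window 10 bases. Ifi208 and Ifi213 thus share much of their proximal promoter. Their log2 ratios between the libraries in macrophage-like cells, given below, were -3.62, the value Ifi208 was selected on, and -0.22. The promoter of Ifi206, a nearby gene outside the set, holds the same match 40 bases before its start, in sequence much like that of Ifi208. The log2 ratio of Ifi206 in macrophage-like cells was -0.09. A match of letters is a description of the sequence and not of binding. The part of promoter sequence in these ratios was not tested.

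Levels are given as CPM, the counts of a gene per 1000000 counts of the cell class in that library, with 95% exact Poisson intervals that cover counting error only. Summed over both libraries, Ifi203, Ifi204, Ifi209, Ifi211 and Ifi213 were highest in M-MDSC-like cells and Ifi207 in macrophage-like cells, so that 6 of 9 members had their highest level in a myeloid class. Ifi205 was highest in fibroblast-like cells. Ifi208 was highest in endothelial-like cells, from only 16 and 1 counts, and Aim2 in mast-like cells, where the value rests on 5 counts. In Lmo7-/- alone the highest class was not myeloid for 3 of the members named as myeloid: Ifi203 was at 206 CPM in fibroblast-like and 194 in M-MDSC-like cells, Ifi211 at 77.6 and 76.6, and Ifi209 at 98.2 in B-like cells, from 5 counts, and 96.5 in M-MDSC-like cells. Ifi207 was at 109 CPM in M-MDSC-like and 104 in macrophage-like cells of that library, both myeloid. The intervals of each of these pairs overlap. All 9 had a lower level in tumor cell-like cells than in macrophage-like cells in both libraries.

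Ifi204, the mouse p204 protein that is often set beside human IFI16, reached 214 CPM in macrophage-like cells of Lmo7+/+ and 205 in Lmo7-/-. In M-MDSC-like cells it reached 223 and 207 CPM, in dendritic-like cells 76.0 and 79.8, and in T-like cells 13.9 and 9.76. Ifi207 was also at its highest in the macrophage-like and M-MDSC-like cells, with 159 and 104 CPM in the former against 6.36 and 1.39 in T-like cells. Over 17 profiles of class and library, the levels of Ifi204 and Ifi207 had a Pearson r of 0.93, a description over profiles that share 2 libraries.

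Ifi203 was spread most evenly over the larger host classes, though not over single clusters. Over host clusters it ran from 7.20 to 531 CPM in Lmo7+/+ and from 11.5 to 591 in Lmo7-/-. B-like and mast-like cells of Lmo7-/- had 78.6 and 35.7 CPM, from 4 and 2 counts. The Ifi203 level lay between 126 and 206 CPM in macrophage-like, M-MDSC-like, dendritic-like, T-like, fibroblast-like and endothelial-like cells of both libraries, and it was 46.7 and 55.4 CPM in tumor cell-like cells. Ifi205, whose protein has been linked to the expression of Pycard in macrophages, had another pattern. It was 159 and 247 CPM in fibroblast-like cells, 146 and 174 in dendritic-like cells, 20.6 and 17.9 in macrophage-like cells and 1.16 and 4.18 in T-like cells. Aim2, the DNA sensor, was 43.4 and 46.9 CPM in T-like cells, 33.8 and 32.1 in macrophage-like cells and 6.18 and 1.80 in fibroblast-like cells. Its intervals overlapped between the 2 libraries in each of these classes.

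**Figure D1:**
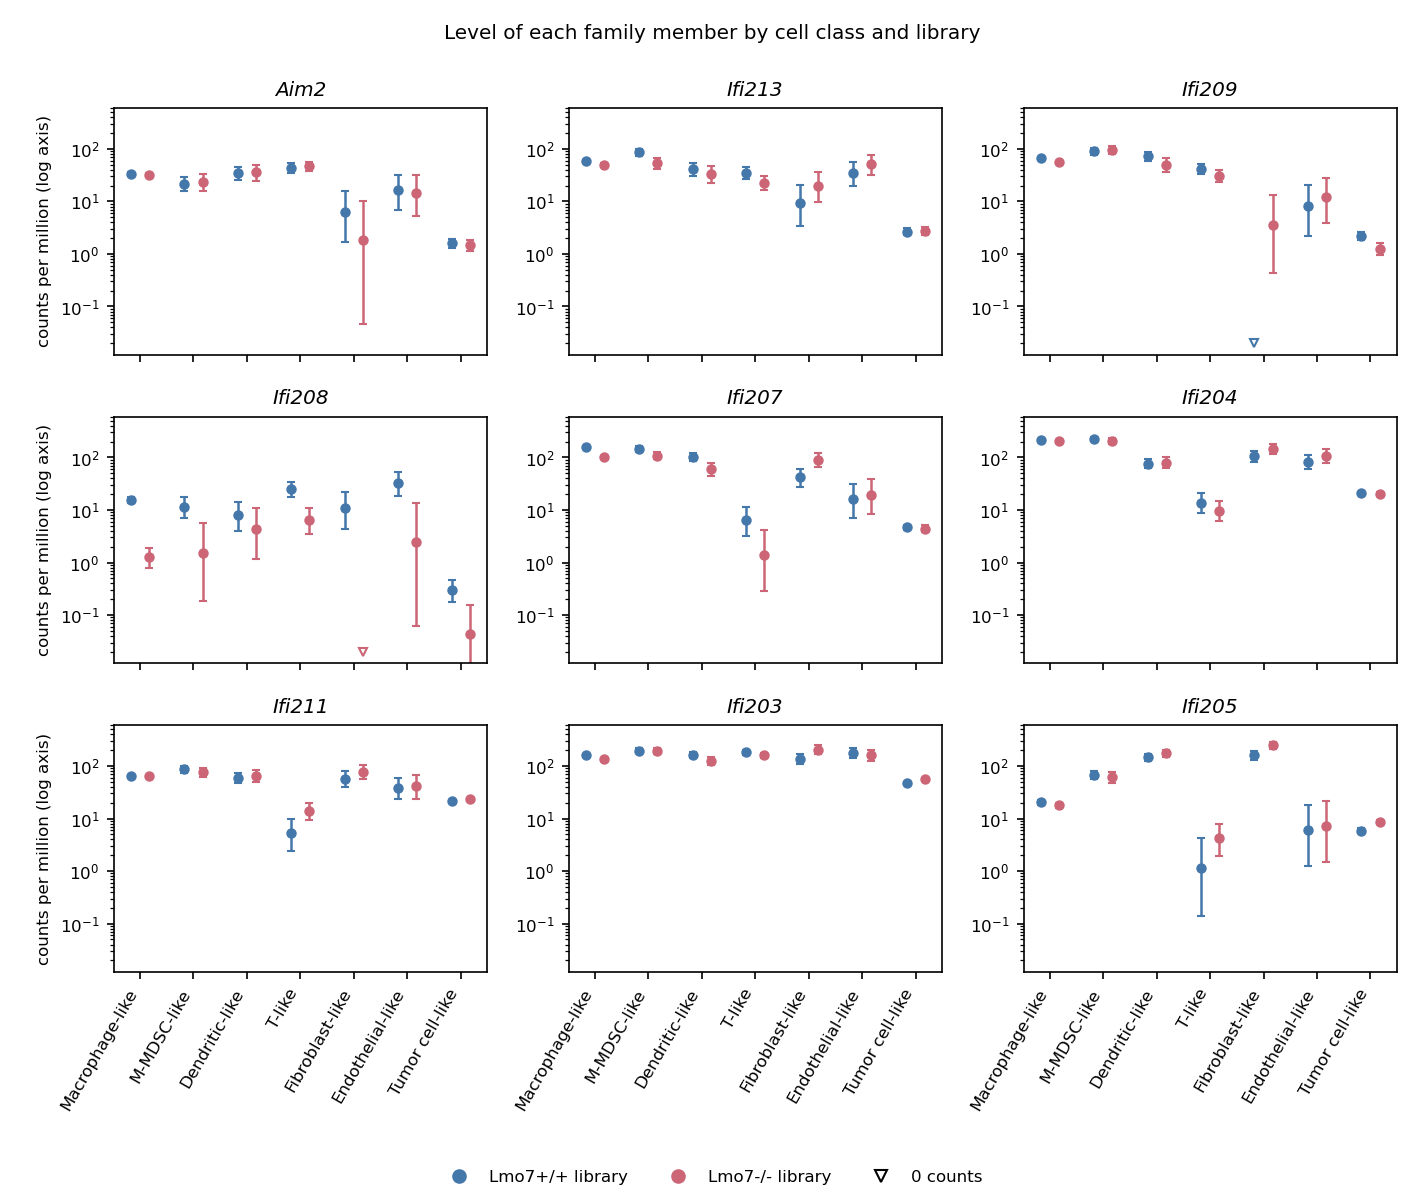
CPM of each of 9 members (log axis) in 7 cell classes of the Lmo7+/+ (blue) and Lmo7-/- (red) libraries, with 95% exact Poisson bars (bars that leave the axis are cut) and open triangles for 0 counts. Blue and red lie close together for most members, whereas the Ifi208 value is lower in Lmo7-/- in each class shown. Examples are 15.7 against 1.27 in macrophage-like cells, 32.4 against 2.43 in endothelial-like cells and 7.89 against 4.31 in dendritic-like cells. The endothelial-like values rest on 16 and 1 counts. The dendritic-like values rest on 11 and 4, with a log2 ratio interval of -2.98 to 0.88.

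Ifi208, a little-studied member that RefSeq also lists as Pydc3, had the lowest log2 ratio of the members in macrophage-like cells, the value it was selected on. In macrophage-like cells it had 264 counts in Lmo7+/+ and 22 in Lmo7-/-, that is 15.7 CPM (13.8 to 17.7) and 1.27 CPM (0.797 to 1.93). The library labelled Lmo7-/- was thus 12.3-fold lower, with a log2 ratio of -3.62 (95% exact binomial interval of the split of counts, -4.32 to -2.99). By the fold limit used here, a log2 ratio of 1 in size from a sum of 20 counts upward, 1 of the 9 members was lower, against 1.43% of 11952 genes, and 0 were higher, against 1.34%. Over all named host classes, which include these cells, Ifi208 had 363 and 43 counts (log2 ratio -3.06, -3.55 to -2.60) and was again the 1 member of 9 that was lower, against 1.7% of genes, with 0 higher, against 1.3%. The rule that chose the family used the macrophage contrast, which gives most of these counts, so nothing is read from either count of members.

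In host cells the rule did not rest on, Ifi208 was lower as well. Over the named host classes other than macrophage-like cells it had 99 counts in Lmo7+/+ and 21 in Lmo7-/- (15.9 and 3.85 CPM, log2 ratio -2.04, -2.80 to -1.35), and 1 of 9 members, Ifi208, was past the limit in the lower direction, against 1.5% of 12175 genes, and 0 in the higher, against 1.57%. In T-like cells it had 43 and 14 counts (24.9 and 6.50 CPM, log2 ratio -1.93, -2.92 to -1.04). The T-like interval and the macrophage-like interval (-4.32 to -2.99) do not overlap, and the difference between the classes was not tested. M-MDSC-like cells had 21 and 2 counts (11.4 and 1.53 CPM, log2 ratio -2.89, -6.03 to -0.86). This class is close to macrophages in these data: C1qa, C1qb and C1qc stood there at 27.7% to 40.6% of their macrophage level over both libraries, and Ms4a7 at 13.5% and 7.47%. Endothelial-like cells had 16 and 1 Ifi208 counts (32.4 and 2.43 CPM), under the minimum of 20, and the 16 counts came from 8 cells. Of the 4 members with enough counts in endothelial-like cells 0 were past the limit, against 3.94% of genes lower and 2.95% higher.

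Other classes gave too few counts to place Ifi208. Dendritic-like cells had 11 and 4 counts, with a log2 ratio whose interval runs from -2.98 to 0.88, and 0 of the 8 members with enough counts passed the limit there, against 2.69% of genes lower and 1.54% higher. Fibroblast-like cells had 7 and 0 counts. With the 0 set to a floor of 3 counts that is 2.00-fold lower, and the interval of the log2 ratio reaches up to -0.30. The 7 counts came from 3 cells. B-like cells had 1 and 0 counts and mast-like cells 0 in both. The unnamed clusters, summed, had 117 and 11 counts (14.7 and 1.51 CPM, log2 ratio -3.28, -4.32 to -2.39), where 1 of 9 members was lower, against 1.22% of genes, and 0 higher, against 1.2%. Most of these cells lay in clusters whose closest class was macrophage-like, the largest with 924 and 791 cells. Their ratio is therefore not apart from the macrophage contrast that the rule used, and nothing is read from it.

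Within Lmo7+/+, Ifi208 was highest in endothelial-like cells at 32.4 CPM (18.5 to 52.6) and in T-like cells at 24.9 CPM (18.0 to 33.5), and these intervals overlap. Macrophage-like cells at 15.7 CPM lay below the T-like interval. M-MDSC-like, fibroblast-like and dendritic-like cells followed at 11.4, 10.8 and 7.89 CPM with overlapping intervals. Tumor cell-like cells stood far below at 0.298 CPM (0.180 to 0.466). In Lmo7-/- the order was T-like (6.50), dendritic-like (4.31), endothelial-like (2.43), M-MDSC-like (1.53), macrophage-like (1.27) and tumor cell-like cells (0.0433), with intervals that overlap between neighbours down to macrophage-like cells.

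**Figure D2:**
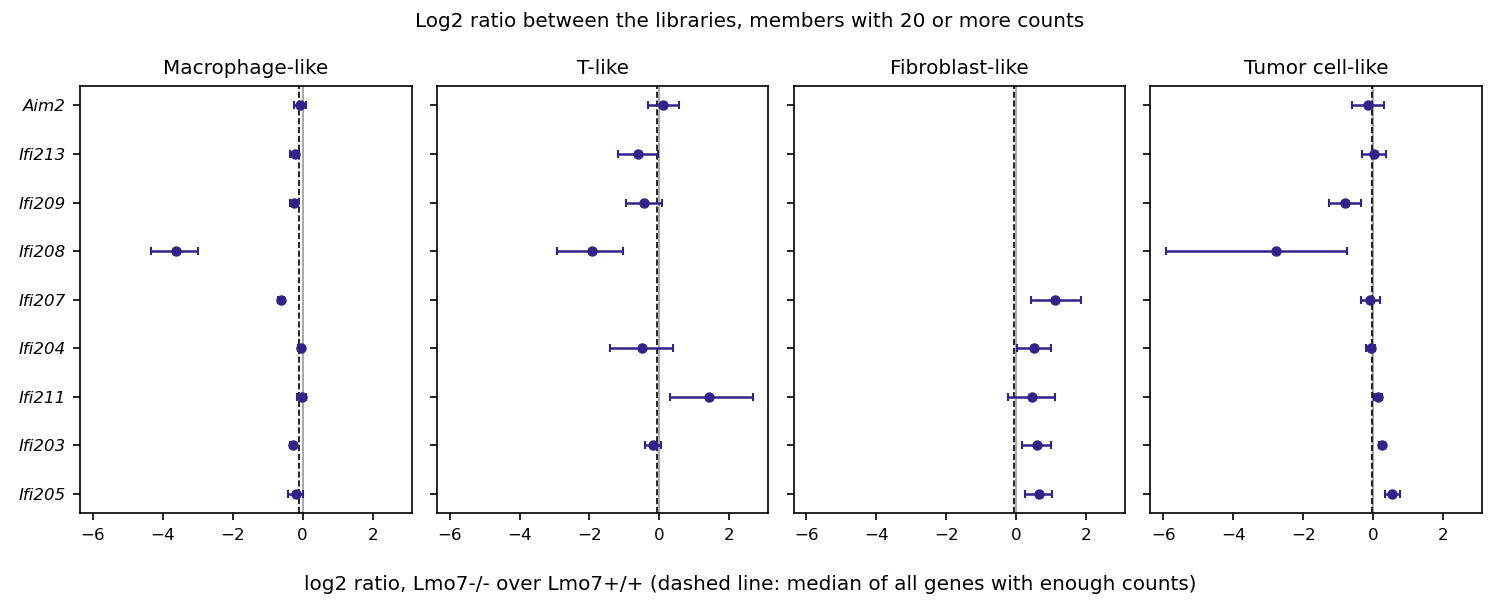
Log2 ratio of the Lmo7-/- over the Lmo7+/+ library for members with at least 20 counts in 4 cell classes, with 95% exact binomial bars and a dashed line at the median of all genes with at least 20 counts. Ifi208 stands to the left in macrophage-like (-3.62), T-like (-1.93) and tumor cell-like cells (-2.79), and the other members lie between -0.62 and -0.03 in macrophage-like cells and to the right of 0 in fibroblast-like cells.

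The share of cells with an Ifi208 UMI was compared next. Before thinning, 7.49% of 2884 macrophage-like cells in Lmo7+/+ and 0.605% of 3472 in Lmo7-/- had one, at median depths of 5326.5 and 4462.5 UMIs. After each cell was thinned to 1500 UMIs, with 134 and 294 shallower cells left out, the shares were 1.93% of 2750 (1.45 to 2.51) and 0.126% of 3178 (0.0343 to 0.322). In T-like cells, at median depths of 2155 and 2213 UMIs, they were 3.29% (1.81 to 5.45) and 1.31% (0.527 to 2.67) after thinning, with intervals that overlap, and 6.23% and 1.79% before, with 152 and 192 cells left out. Tumor cell-like cells, taken as the background, had 0.0785% of 6367 and 0 of 4667 cells after thinning, which by the limit of 3 counts allows up to 0.0643%, with 1255 and 838 cells left out. Before thinning their shares were 0.249% and 0.0363%, at median depths of 4822.5 and 5275 UMIs. Endothelial-like cells had 8.08% and 1.37% before thinning and 1.16% of 86 and 1.59% of 63 after it, 1 cell in each library, so no difference was detectable there at equal depth. They were at median depths of 3512 and 3498 UMIs, with 13 and 10 cells left out.

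Macrophage-like cells were clustered once more to see where in them Ifi208 was found. All 8 subclusters had Ifi208 counts in Lmo7+/+ and 5 of the 8 had none in Lmo7-/-. The level was highest in subcluster 6, which is led by the type I interferon-stimulated genes Cmpk2, Ifit3b and Ifit3: 57 counts and 50.2 CPM in 215 cells of Lmo7+/+, against 2 counts and 2.95 CPM in 155 cells of Lmo7-/-. Subcluster 3, led by the cell cycle genes Ccna2, Nusap1 and Aurkb, followed with 110 and 7 counts (19.7 and 1.73 CPM). Subcluster 1, led by Procr, Ccl5 and Pdcd1lg2, had 40 and 13 counts (12.9 and 2.03 CPM). The lowest level in Lmo7+/+ was 5.58 CPM in subcluster 4, led by Hspb1, Mmp12 and Gpnmb. Subcluster 7 is led by genes of tumor cells such as H19 and Rhox5, and had 8 and 0 counts.

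In T-like cells the peak in Lmo7+/+ was also in a subcluster with interferon-stimulated genes among its leading genes. Subcluster 3, led by Ifit1bl1, S1pr1 and Ifit3, had 14 counts and 110 CPM in 65 cells of Lmo7+/+ and 2 counts and 16.9 CPM in 76 cells of Lmo7-/-. Its leading genes also include Slamf6, Tcf7 and Lef1. Subcluster 1, led by the granzyme genes Gzmg, Gzmf and Gzme, had 12 and 7 counts (27.2 and 10.2 CPM). In subcluster 4, led by Foxp3 and Lrrc32, 1 and 2 counts allow no comparison. Among clusters that were not divided further, the highest Ifi208 level in Lmo7+/+ was in an unnamed one led by Slfn4, Ifit1bl1 and Ly6c2, which has Ifi208 itself among its leading genes, with 27 counts and 96.4 CPM in 64 cells, against 0 counts in 25 cells of Lmo7-/-. In that same cluster Ifi204 was at 739 and 771 CPM and Ifi213 at 271 and 241 CPM, and the log2 ratios of these were 0.06 and -0.17.

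**Figure D3:**
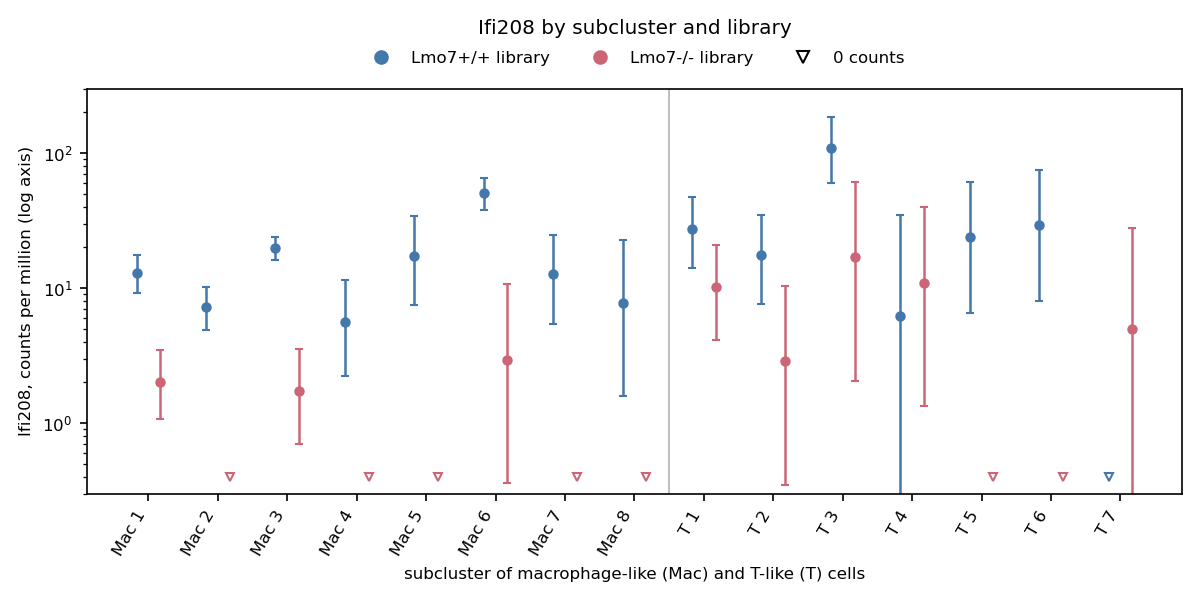
Ifi208 CPM (log axis) in 8 macrophage-like and 7 T-like subclusters of the Lmo7+/+ (blue) and Lmo7-/- (red) libraries, with 95% exact Poisson bars (bars that leave the axis are cut) and open triangles for 0 counts. The Lmo7+/+ level peaks in Mac 6 (50.2) and T 3 (110). Mac 6 is led by type I interferon-stimulated genes, and the leading genes of T 3 include Ifit1bl1 and Ifit3 beside S1pr1, Slamf6, Tcf7 and Lef1.

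The other 8 members differed little between the libraries in macrophage-like cells. Their log2 ratios ran from -0.62 to -0.03 with a median of -0.21, against a median of -0.11 over all genes tested. Ifi207 was the lowest of them, with 2685 and 1792 counts, 159 and 104 CPM and a log2 ratio of -0.62 (-0.71 to -0.53). The next was Ifi203 at 166 and 136 CPM (-0.29, -0.37 to -0.21), and Ifi209 and Ifi213 had -0.24 and -0.22. Ifi205 (-0.20, -0.43 to 0.02), Aim2 (-0.07, -0.24 to 0.10), Ifi204 (-0.06, -0.13 to 0.01) and Ifi211 (-0.03, -0.15 to 0.09) had intervals that include 0, and the sign of the last 3 turned under some of the alternatives to the processing. Ifi207 was also lower in M-MDSC-like cells (-0.40) and dendritic-like cells (-0.80, -1.28 to -0.34), where it had 144 and 55 counts. Ifi213 had 161 and 69 counts in M-MDSC-like cells (-0.72, -1.15 to -0.31). Of 9 members 1, Ifi208, passed the fold limit downward in M-MDSC-like cells, against 2.69% of all genes, and 0 upward, against 1.39%.

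In T-like cells the libraries differed in 2 of the 7 members with enough counts. Ifi208 was lower, against 2.56% of all genes, and Ifi211 was higher, with 9 and 30 counts, 5.20 and 13.9 CPM and a log2 ratio of 1.42 (0.31 to 2.68), against 1.03% of all genes. Ifi211 counts are uncertain because of the overlap with Mndal and the sequence shared with Ifi205, and Mndal itself had a log2 ratio of -0.31 in these cells. Ifi213 was 34.7 and 22.8 CPM (-0.61, -1.18 to -0.04). Ifi207 had 11 and 3 counts, under the minimum of 20.

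Fibroblast-like cells gave positive ratios. Each of the 5 members with enough counts had a positive log2 ratio, and Ifi207 was past the limit, with 27 and 50 counts, 41.7 and 90.2 CPM and a log2 ratio of 1.11 (0.41 to 1.85), against 3.34% of all genes, while 0 were lower, against 4.5%. Ifi205 had 103 and 137 counts (0.64, 0.26 to 1.02), Ifi203 89 and 114 (0.58, 0.17 to 1.00), Ifi204 68 and 82 (0.49, 0.01 to 0.98) and Ifi211 37 and 43 (0.44, -0.23 to 1.12). The median of all 6774 genes in these cells was -0.07. The share of cells with a UMI after thinning to 1500 UMIs, with 28 and 15 cells left out, did not show these differences: it was 8.25% and 8.54% for Ifi207, 22.7% and 23.2% for Ifi203, 15.5% and 14.6% for Ifi204, 21.6% and 23.2% for Ifi205, and 11.3% and 14.6% for Ifi211. Before thinning it was 16.0% and 33.0% for Ifi207, at median depths of 3143 and 4050 UMIs. The class holds 125 and 97 cells. C1qa, C1qb and C1qc, genes of macrophages, stood there at 3.60% to 4.46% of their macrophage level in Lmo7+/+ and at 5.69% to 7.17% in Lmo7-/-, while Ms4a7 stood at 4.66% and 1.68%. The part of macrophage RNA in these ratios was not tested.

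In tumor cell-like cells, which carry the same Lmo7 in both libraries, Ifi205 had 373 and 397 counts (5.85 and 8.59 CPM, log2 ratio 0.55, 0.34 to 0.76). Ifi203 was at 46.7 and 55.4 CPM (0.25, 0.17 to 0.32) and Ifi211 at 21.3 and 23.7 CPM (0.15, 0.04 to 0.27). Ifi209 was lower, with 139 and 58 counts (2.18 and 1.25 CPM, -0.80, -1.27 to -0.35). Ifi208 had 19 and 2 counts (-2.79, -5.93 to -0.73) and was the 1 member of 9 past the limit in the lower direction, against 1.72% of all genes, with 0 in the higher, against 1.55%.

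RNA set free from macrophages can be counted in other droplets, so the level in tumor cell-like cells was set against that in macrophage-like cells. For C1qa, C1qb, C1qc and Ms4a7, which mark macrophages, it was 0.915% to 1.32% of the macrophage level over both libraries. Ifi208 stood at 1.90% in Lmo7+/+ and 3.40% in Lmo7-/-, the latter from 2 counts, and Ifi207 at 2.93% and 4.28%. Ifi209 stood at 3.27% and 2.23%, Ifi213 at 4.60% and 5.48%, and Aim2 at 4.74% and 4.51%. Ifi203, Ifi205 and Ifi211, at 28.2% to 47.9%, and Ifi204, at 9.95% and 9.86%, were far above the macrophage markers. In T-like cells the same markers stood at 1.44% to 2.25%, Ifi207 at 3.99% and 1.35%, and Ifi208 at 159% and 511%. Ifi208 thus had a higher level in T-like than in macrophage-like cells of both libraries, while the macrophage markers were low in T-like cells.

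The level of the family was then set beside that of the type I interferon-stimulated genes across clusters. In Lmo7+/+ the summed level of the 8 other members was 2720 CPM in the unnamed cluster led by Slfn4, Ifit1bl1 and Ly6c2, where the summed type I list was 8801 CPM, and 79.8 CPM in the tumor cell-like cluster with the lowest level, where the list was 729 CPM. Over 17 host clusters of Lmo7+/+ the log2 level of the members and that of the list had a Pearson r of 0.82 for Ifi204, 0.82 for Ifi211, 0.67 for Ifi213, 0.63 for Ifi207, 0.53 for Ifi205, 0.42 for Ifi203, 0.41 for Ifi209 and 0.23 for Aim2. Over 18 host clusters of Lmo7-/- r was 0.68 for Ifi203, 0.66 for Ifi204, 0.62 for Ifi207 and 0.54 for Ifi213. It was 0.50 for Ifi211, 0.43 for Ifi205, 0.38 for Aim2 and 0.37 for Ifi209. For Ifi208 r was 0.43 over 17 host clusters of Lmo7+/+ and -0.29 over 18 of Lmo7-/-, many of them with 0 counts. Clusters share libraries and depth, so these values are descriptions.

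The cells of Lmo7+/+ with an Ifi208 UMI were then compared with those without. Among macrophage-like cells thinned to 1500 UMIs, 53 had an Ifi208 UMI and 2697 had none. The summed type I list was 5509 CPM (5005 to 6050) in cells with one and 2164 CPM (2119 to 2210) in cells without. The summed level of the 8 other members was 1635 CPM against 772 CPM. Among single members Ifi204 was 503 against 197 CPM and Ifi207 327 against 157 CPM. For Aim2 the values were 37.7 and 38.8 CPM, with an interval of 7.78 to 110 in the cells with Ifi208.

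**Figure D4:**
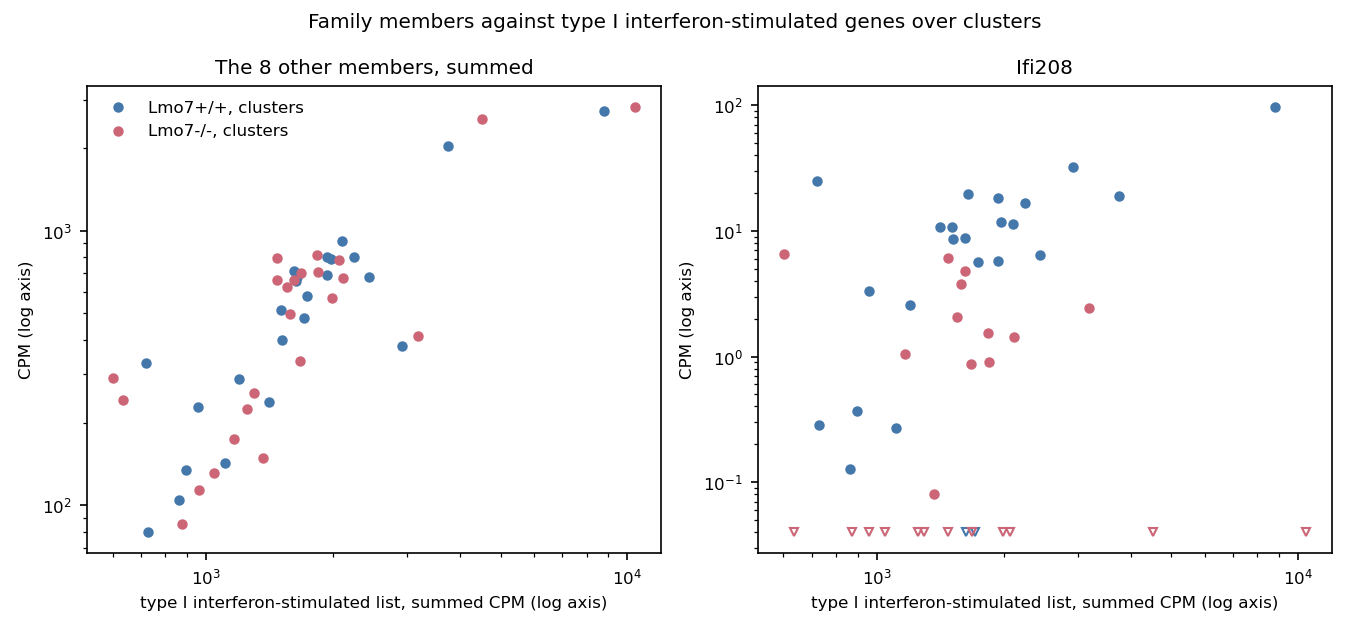
Summed level of the 8 other members (left) and level of Ifi208 (right) against the summed level of the type I interferon-stimulated list in clusters with at least 20 cells in each library, in CPM on log axes, for Lmo7+/+ (blue) and Lmo7-/- (red), with open triangles for 0 Ifi208 counts. On the left, both libraries lie on 1 band that rises to 2720 and 2814, and on the right most red points lie below the blue ones at like levels of the list.

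The genes around the family in the interferon and DNA sensing pathways were compared in macrophage-like cells by lists. Of 21 type I interferon-stimulated genes 0 passed the fold limit in either direction, against 1.43% of all genes lower and 1.34% higher. A count of 0 in a list of this size is near those shares, so nothing is read from it. The median log2 ratio of the list was -0.11, that of all genes. Isg15, a ubiquitin-like modifier, was at 333 and 348 CPM (0.06), Rsad2, which makes the antiviral protein viperin, at 141 CPM in both, and Cmpk2 at 19.9 and 12.8 (-0.64). Of 13 receptors and factors of interferon signalling 0 passed, again near those shares, with a median of 0.01. Irf1, a factor induced by interferon gamma, was at 162 and 297 CPM (0.87) and Irf7, a factor of the type I response, at 420 and 385 (-0.13).

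The 16 interferon gamma-inducible genes had a median of 0.61 in macrophage-like cells. Of them 1, the guanylate-binding protein gene Gbp4, was past the limit with 49.0 and 99.4 CPM (1.02), against 1.34% of all genes. The chemokine gene Cxcl9 was at 834 and 1649 CPM (0.98). In tumor cell-like cells their median was 0.96 and 8 of 16 were past the limit, against 1.55% of all genes. The lists did not have the same values in each class. In T-like cells the interferon gamma list had a median of 0.05 and the type I list one of -0.41, with 18 of 19 genes below 0, against -0.06 over all genes. The type I median was -0.33 in dendritic-like and -0.24 in M-MDSC-like cells, and over the host classes other than macrophage-like cells it was -0.31, with 19 of 21 genes below 0, against -0.03 over all genes. In endothelial-like cells it was 0.08. The medians over all genes are negative too where genes below 0 were counted, and the share of all genes below 0 was not counted. The part of the type I list in the Ifi208 ratios was not tested.

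Of 17 genes of DNA sensing and inflammasomes with enough counts 1 was past the limit upward, the inflammasome sensor Nlrp1b with 40 and 83 counts (1.01), and 0 downward, against 1.34% and 1.43% of all genes, with a median of 0.05. Pycard, the adaptor of Aim2, was at 235 and 239 CPM (0.02), Casp1, its protease, at 68.6 and 87.3 (0.35), and Nlrp3, the sensor of another inflammasome, at 864 in both. Cgas, which makes the second messenger for STING, was at 43.8 and 26.9 CPM (-0.70), and Tmem173, the gene of STING, at 92.2 and 117 (0.35). Among genes outside the set, Ifi206 (-0.09), Mndal (-0.21) and Ifi214 (-0.30), which belong to the same family cluster, and the neighbour Cadm3 (-0.25) had enough counts. None of these passed the limit, which is near the shares of all genes just given. Apcs, Crp and Fcer1a had 0 counts in macrophage-like cells of both libraries.

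Genes near the family on the chromosome were compared as well. Of 29 other genes within 2 Mb with enough counts in host cells, the median log2 ratio was -0.09. The lowest was Ackr1, an endothelial chemokine receptor, at -1.76, and the highest Fcrl6 at 1.51. These were the 1 gene below and the 1 gene above the limit, against 1.7% and 1.3% of all genes in these cells. By size and sign in macrophage-like cells and in the other host classes, 3 further genes stood with Ifi208: Gm42031 (2.94), Igha (-2.85), an antibody heavy chain gene with 21 counts in macrophage-like cells, and Pdcd1lg2 (2.69), a ligand of the receptor PD-1. By profile over 17 combinations of class and library, genes with a level much like that of Ifi208 among 13213 were Zrsr1 (r = 0.77), 2510002D24Rik (0.77), Hist1h1e (0.76) and Gm31597 (0.75).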

How the data were processed

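Live cells of MC38 tumors were profiled on the 10x Genomics platform, as 1 library per genotype. The authors deposited raw UMI counts per gene and droplet, after calling droplets as cells, without normalization. The submitters' processing notes name Cell Ranger 2.1.1 and the build mm10. The annotation is not given in the sources used here, so GENCODE M21 and RefSeq tables of GRCm38.p6 gave positions and promoters. Of the 10 symbols, 9 had a row.

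Droplets were kept from 500 genes and 1000 UMIs upward when mitochondrial UMIs made up no more than 15%. Scrublet marked 2.82% and 2.37% of them as doublets, which were kept. Clustering took both libraries at once, on log values of counts scaled to 10000 per cell (2000 variable genes without the members, 30 principal components, 20 neighbours, Louvain resolution 0.5). A cluster was named when its markers averaged at least 0.15 of their highest level in fine clusters, with at least 3 at 5 CPM, and when no other lineage reached 0.5 of its score nor more of its leading genes. Tumor cells were named by a chromosome profile of at least 0.8 of that of the clearest tumor clusters. UMI counts were summed per class, and a gene was compared by log2 ratio (Lmo7-/- over Lmo7+/+) from a sum of 20 counts. Intervals are 95% exact Poisson (CPM) or Clopper-Pearson (shares, ratios) and cover counting error only. A count of 0 was set to a floor of 3 to give a ratio, which is not a confidence limit. The spread between mice is unknown.

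The members, the gene lists and the rules were chosen with earlier results of these data known. The genes named are all members in the named classes, the lists given in the text, genes among the 5 most like Ifi208, up to 10 genes with a log2 ratio of at least 2 in size in macrophages and 1 sign in each other host class with enough counts, and leading genes of macrophage subclusters. Leading genes of T-like subclusters and unnamed clusters, Fcrl6 and the macrophage RNA markers were named after their values were seen. Tools were Python 3.11.15, NumPy 2.4.6, SciPy 1.17.1, pandas 2.3.3, scikit-learn 1.9.0, Scanpy 1.11.5, igraph 0.11.9, matplotlib 3.10.9 and edgeR 4.0.16 (TMM scaling only). The ratio was tested on simulated data: 100% of the 50 genes lowered by a log2 ratio of 3 in macrophages were found past the limit. In T-like cells 89.4% of the 47 genes lowered by 1.5 were found. The simulation held counting error only and no spread between mice or libraries. Some items that these rules select are not reported here.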

Additional observations from a re-analysis of the deposited data

Results flagged for a closer look

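Ifi203 and Ifi207 lay on opposite sides of 0 in different cell classes, with intervals on each side that leave out 0. Ifi203 had a log2 ratio of 0.58 in fibroblast-like cells and 0.25 in tumor cell-like cells, against -0.29 in macrophage-like and -0.35 in dendritic-like cells. Ifi207 had 1.11 in fibroblast-like cells, against -0.62 in macrophage-like, -0.40 in M-MDSC-like, -0.80 in dendritic-like and -2.19 in T-like cells, the last from 14 counts. Each class has 1 library per genotype, so these differences between classes were not tested. The thinned shares of fibroblast-like cells with an Ifi207 UMI were 8.25% and 8.54%, and with an Ifi203 UMI 22.7% and 23.2%. Ifi203 counts are uncertain because the gene model of Mndal overlaps it.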

How the results depend on the processing

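The log2 ratio of Ifi208 in macrophage-like cells ran from -3.99 to -3.47 over 15 settings, and the count of members past the fold limit stayed at 1 lower and 0 higher in 17. In the other named host classes it ran from -3.01 to -1.63, and the stricter cell filter (from 1000 genes and 2000 UMIs, mitochondrial share up to 10%) gave the lowest value, -3.01. In tumor cell-like cells thinning to 1500 UMIs gave -0.29 with the floor of 3 counts, from 5 and 0 counts, and the interval reaches up to 0.57. No value was possible among tumor cell-like cells without UMIs of other lineages, where both libraries had 3 or fewer counts. The median of the 8 other members, -0.21, ran from -0.28 to -0.11, and that of the type I list from -0.18 to -0.01. Ifi204, Ifi211 and Aim2 were below 0 in 15, 14 and 16 of 17 settings. TMM scaling raised all ratios in macrophage-like cells by 0.105. The number of members highest in a myeloid class was 5 to 6. Ifi208 was highest in T-like cells after thinning to 1500 UMIs and with the mean of per-cell values, and in endothelial-like cells in the other settings. Leaving out barcodes present in both libraries and naming unnamed clusters by their closest class were chosen after seeing the data. No paired analysis was possible because each genotype has 1 library. Depth limits Ifi208 in B-like, mast-like, fibroblast-like, endothelial-like and dendritic-like cells, where it had under 20 counts.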
